A study of Mus musculus with 22 samples.

Results

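Genes that mark the Purkinje cell, Pcp2, Pcp4, Calb1, Car8, Itpr1, Ppp1r17 and Gng13, were followed through 3 brain regions of wild-type and circTulp4-deficient (CD) mice. They were taken by name from a list, and all 7 were found among the 23033 genes of the count table, where the RefSeq transcript with the most counts over all libraries stands for the gene. In the comparison of regions all 7 passed the filter on low counts, Ppp1r17 through the cerebellar libraries alone, and Ppp1r17 fell below it inside the hippocampus and inside the cortex. The question was which of them are confined to the cerebellum, which are also read in the forebrain, and whether any of them differs between genotypes.

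Polyadenylated RNA was profiled by CelSeq2, a 3′ RNA-seq method that counts transcript ends, in 22 libraries. Hippocampus came from 3 wild-type and 4 CD mice, cortex from 4 and 4, and cerebellum from 4 and 3, and the regions of a mouse share its name (m118, m162 and so on). CD mice carry an AG to TC change at the splice acceptor used for the backsplicing of circTulp4, a brain-enriched circular RNA, and the line descends from a mosaic founder male made with CRISPR-Cas9 and was kept on a C57BL/6 background, while the wild-type mice, their littermates where the study says so, lack the change. The repair template carried a further base change in the PAM, the short motif beside the guide's target. The labels give neither age nor sex. Totals per library were between 2757684 and 8847478 counts.

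Purkinje cells are the large inhibitory neurons of the cerebellar cortex and its sole output. Glutamate from parallel fibers acts on the metabotropic receptor mGluR1, whose G protein activates phospholipase C, and the inositol trisphosphate (IP3) that is formed opens the receptor Itpr1 on the calcium stores of the endoplasmic reticulum. Several of the genes followed here act on this route or on the calcium it releases. The cells are few among the granule cells that make up most of the cerebellum, and in RNA of whole tissue fewer cells of a type cannot be told apart from less RNA per cell.

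The genes lie on 5 chromosomes of mm10 (GRCm38). Pcp2 (NM_008790.2) spans chr8:3623369-3625547 on the minus strand, Pcp4 (NM_008791.2) chr16:96467606-96525793 on the plus strand and Gng13 (NM_022422.5) chr17:25717172-25719102 on the plus strand. Calb1 (NM_009788.4) spans chr4:15881264-15906709 on the plus strand and Car8 (NM_007592.3) chr4:8141493-8239041 on the minus strand. Itpr1 (NM_010585.5) spans chr6:108213083-108551116 and Ppp1r17 (NM_011153.3) chr6:56017497-56032689, both on the plus strand. Itpr1 had 18 transcripts in the table, and the lowest of them held 99.9% of the counts of the highest. At the 3′ end, where the reads fall, the oppositely oriented gene Pet100 overlaps Pcp2 and Chtf18 overlaps Gng13; the strand setting of the counting is not stated. Pet100 was at 20.1 cpm in hippocampus, 17.1 in cortex and 22.7 in cerebellum, and Chtf18 was at 0.491, 1.02 and 1.65 cpm.

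RefSeq promoter sequence (GRCm38.p6) was at hand for a gene that proved confined to the cerebellum, Pcp2, and for a pair that did not, Pcp4 and Gng13. The 250 bases before each transcription start are shown so that the groups can be set side by side. AGGTCA, the core motif of nuclear receptors such as RORα, a factor of Purkinje cell development, was searched on both strands and stands in capitals, written TGACCT where it lies on the other strand. The windows are chr8:3625548-3625797 (minus strand), chr16:96467356-96467605 (plus strand) and chr17:25716922-25717171 (plus strand).
Pcp2: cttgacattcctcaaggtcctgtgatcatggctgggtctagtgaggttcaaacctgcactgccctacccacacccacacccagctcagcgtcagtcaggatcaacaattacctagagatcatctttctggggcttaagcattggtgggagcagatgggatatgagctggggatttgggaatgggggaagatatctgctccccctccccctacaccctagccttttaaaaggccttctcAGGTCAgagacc
Pcp4: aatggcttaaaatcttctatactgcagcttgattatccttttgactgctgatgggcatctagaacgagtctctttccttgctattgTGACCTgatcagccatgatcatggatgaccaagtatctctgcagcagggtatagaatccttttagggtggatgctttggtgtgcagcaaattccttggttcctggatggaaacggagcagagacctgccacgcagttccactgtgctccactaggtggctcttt
Gng13: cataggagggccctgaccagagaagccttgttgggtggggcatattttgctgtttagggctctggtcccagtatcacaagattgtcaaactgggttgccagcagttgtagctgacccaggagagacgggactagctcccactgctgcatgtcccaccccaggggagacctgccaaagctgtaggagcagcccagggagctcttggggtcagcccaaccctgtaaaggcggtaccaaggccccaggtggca
The motif occurred in Pcp2 at -12, counted from the transcription start to its first base, and in Pcp4 on the other strand at -164. In Gng13 these letters are not in this window. Of 27025 promoters of the same length, 3729 (13.8%) held the motif on either strand, so its presence is a description of these windows.

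Before the levels, the libraries were set against their labels. The summed level of the granule cell markers, the commonest cerebellar neurons, was 3692 to 4728 cpm in the cerebella and 133 to 325 cpm in the forebrain libraries. Hippocampal neuron markers summed to 1634 to 2152 cpm in hippocampus and to 186 to 378 cpm elsewhere, and cortical neuron markers to 529 to 675 cpm in cortex, 432 to 551 cpm in hippocampus and 27.8 to 45.0 cpm in cerebellum. In the GENCODE annotation the first exon of Tulp4-201 lies in circTulp4, and Tulp4-209 shares its other exons and has an intron across circTulp4. The study instead describes Tulp4-209 as holding the whole circTulp4 sequence. Counts of Tulp4-201 exceeded those of Tulp4-209 by 2.71 to 3.69 cpm in wild-type hippocampus and by 0.424 to 0.573 cpm in 3 CD hippocampi. The library labelled CD hippocampus of mouse m118 had 3.98 cpm, with the wild-type libraries. These hippocampal values rest on 3 to 24 counts per library, 16 in m118. The cortex and cerebellum of this mouse had 0.897 and 1.55 cpm, with the CD libraries. CD cortices had at most 1.295 cpm and wild-type cortices at least 1.45 cpm (4 counts). CD cerebella had at most 2.62 cpm and wild-type cerebella at least 3.12 cpm. The cause was not tested. The values of hippocampal genotype comparisons are therefore given with and without the m118 hippocampus.

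Pcp2, Car8 and Ppp1r17 were read almost wholly in the cerebellum. Pcp2, a regulator of inhibitory G proteins that has given its promoter to many Purkinje cell lines, was at 2348, 2390, 2029 and 2437 cpm (counts scaled to library size with TMM, the trimmed mean of M values) in the wild-type cerebella of mice m162, m164, m240 and m244, and at 2131, 2173 and 2258 cpm in the CD cerebella of mice m118, m190 and m242. In wild-type hippocampus it was at 11.5, 12.1 and 17.9 cpm (mice m162, m240 and m244) and in CD hippocampus at 10.6, 12.0, 14.5 and 14.3 cpm (mice m118, m138, m190 and m242). In wild-type cortex it was at 13.2, 10.1, 11.3 and 26.3 cpm (mice m162, m164, m240 and m244) and in CD cortex at 15.1, 15.6, 13.3 and 14.4 cpm. No forebrain library came near a cerebellar one, and the wild-type cortex of mouse m244 stood highest among the forebrain libraries. The cerebellar mean was 168-fold that of the hippocampus (log2 difference 7.39, SE 0.16) and 155-fold that of the cortex (7.27, SE 0.15).

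Car8, a carbonic anhydrase relative without enzyme activity that binds the IP3 receptor and lowers its affinity for IP3, was at 1269, 1352, 1168 and 1292 cpm in the wild-type cerebella and 1123, 1229 and 1430 cpm in the CD cerebella, in the same order of mice. Hippocampal values ran from 8.10 to 14.8 cpm and cortical values from 16.4 to 24.4 cpm. The cortical values all lay above the hippocampal ones, and both lay far below the cerebellar ones. The log2 difference of cerebellum to hippocampus was 6.73 (SE 0.13) and to cortex 5.94 (SE 0.11).

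Ppp1r17, which encodes a protein phosphatase inhibitor switched on by the cGMP-dependent kinase, was at 234, 202, 184 and 175 cpm in the wild-type cerebella and at 171, 212 and 206 cpm in the CD cerebella. It gave 4 to 13 counts per hippocampal library and 5 to 11 counts per cortical library, or 0.696 to 1.72 and 0.750 to 1.99 cpm, so that its forebrain level rests on few reads. The log2 differences were 7.28 (SE 0.15) to hippocampus and 7.19 (SE 0.15) to cortex.

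Pcp4, Calb1, Itpr1 and Gng13 were also higher in the cerebellum, but by a far smaller factor. Pcp4, a small IQ-motif protein that tunes calmodulin and is known in several forebrain neurons, was at 1902, 1829, 1553 and 1728 cpm in the wild-type cerebella and at 1834, 1774 and 1565 cpm in the CD cerebella. In the hippocampi it was at 335, 316 and 405 cpm in the wild type and at 291, 329, 340 and 281 cpm in CD mice. The cerebellum exceeded the hippocampus 5.26-fold (log2 2.39, SE 0.19) and the cortex 4.35-fold (log2 2.12, SE 0.18), with no overlap between cerebellar and forebrain libraries.

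Calb1, the EF-hand calcium buffer calbindin, was at 1463, 1438, 1352 and 1294 cpm in the wild-type cerebella and at 1182, 1315 and 1416 cpm in the CD cerebella. The hippocampi lay closely together, at 187, 176 and 182 cpm in the wild type and 187, 171, 190 and 207 cpm in CD mice. Its cerebellar level was 7.26-fold the hippocampal one (log2 2.86, SE 0.14) and 5.80-fold the cortical one (log2 2.54, SE 0.13).

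Itpr1, the IP3 receptor of the calcium stores, was at 917 to 1134 cpm in the cerebella, 251 to 323 cpm in the cortices and 117 to 182 cpm in the hippocampi, so the 3 regions did not overlap. Gng13, a G protein gamma subunit best known from taste and retinal bipolar cells, ran from 145 to 201 cpm in cerebellum, from 33.9 to 54.3 cpm in cortex and from 17.7 to 33.7 cpm in hippocampus. For Gng13 the cortical and hippocampal ranges touched neither each other nor the cerebellar range. The log2 differences of cerebellum to hippocampus were 2.70 (SE 0.09) for Itpr1 and 2.78 (SE 0.11) for Gng13, and those to cortex were 1.88 (SE 0.08) and 2.15 (SE 0.10).

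**Figure D1:**
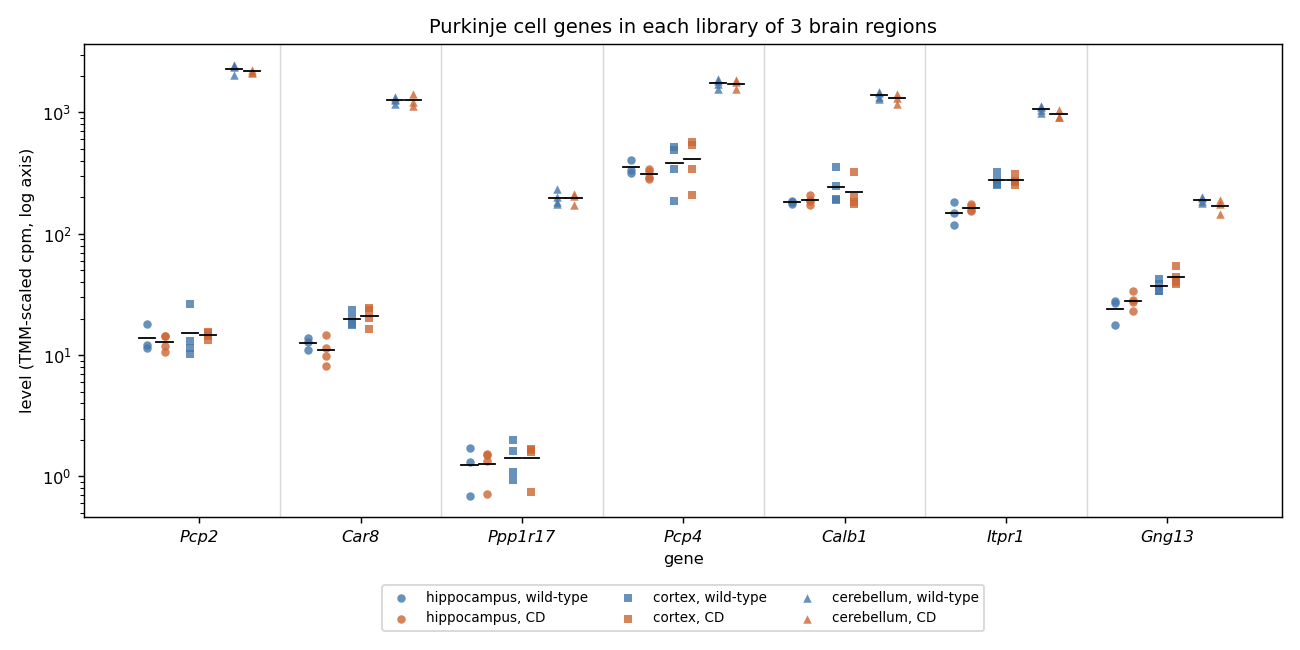
Level of each Purkinje cell gene in each of the 22 libraries, in TMM-scaled cpm on a log axis, with a symbol per library, shapes for regions, colors for genotypes and a bar at each group mean. The cerebellar libraries lie above all forebrain libraries for every gene, by the widest gap for Pcp2, Car8 and Ppp1r17, at 11.7 to 20.5 cpm in the forebrain regions against 1266 cpm in cerebellum for Car8.

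The 7 genes were called higher in cerebellum than in hippocampus and than in cortex by edgeR's quasi-likelihood test over 22 libraries, at a Benjamini-Hochberg adjusted p (FDR) below 0.01 and a fold above 2. The highest FDR, that of Pcp4, was 8.0e-11 to hippocampus and 2.0e-10 to cortex. Of the 11133 genes tested, 9.77% were called higher in cerebellum than in hippocampus and 9.70% higher than in cortex, the background of this count. Ppp1r17 reached the filter's 5 cpm in no forebrain library, so the direction of its difference was set by the filter. Of the 10487 genes that passed on the forebrain libraries too, 7.08% were called higher than in hippocampus and 6.97% higher than in cortex, against 6 of the other 6 members. The median log2 difference of these 6 was 2.82 to hippocampus and 2.34 to cortex, beside -0.02 over the 10487 genes in each comparison. All 11133 genes tested were also ranked by the difference of cerebellum to the mean of hippocampus and cortex. Pcp2 was at 12 and Car8 at 31, and Ppp1r17, whose direction the filter set, was at 14. Calb1 was at 231, Gng13 at 267, Itpr1 at 294 and Pcp4 at 303.

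Expressed as a percent of the cerebellar mean, the genes fell into separate sets. The hippocampal share was 0.589% ± 0.110 (SD, n = 7) for Pcp2, 0.636% ± 0.203 for Ppp1r17 and 0.921% ± 0.183 for Car8, and the cortical share 0.662% ± 0.220 (SD, n = 8), 0.714% ± 0.219 and 1.62% ± 0.244. For the other 4 genes the hippocampal share lay between 13.7% (Calb1) and 18.9% (Pcp4), and the cortical share between 17.2% (Calb1) and 26.9% (Itpr1). With confinement defined as a share of at most 5% in both forebrain regions, 3 genes were confined to the cerebellum and 4 were shared with the forebrain, and none lay near the limit. This limit is relative to the cerebellar level and does not mean absence from the forebrain. Pcp2 and Car8 reached 5 cpm in all 15 forebrain libraries. The level of Car8 in cortex (16.4 to 24.4 cpm) overlapped that of Gng13, a shared gene, in hippocampus (17.7 to 33.7 cpm). By the same limit of 5%, 64 of the 11133 genes (0.575%) were confined. The 11133 include 646 genes that passed the filter through the cerebellar libraries alone, Ppp1r17 among them. For these the filter itself favors a low forebrain share. The confined genes among the other 10487 were not counted.

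The residual forebrain level of the confined genes was set beside markers of cerebellar granule cells, not all of which are absent from the forebrain. Cbln3 stood at 0.642% of its cerebellar mean in hippocampus and 0.694% in cortex, and Gabra6 at 0.571% and 0.537%, which is near the shares of Pcp2 and Ppp1r17. The wild-type cortex of mouse m244, the library with the fewest counts (2757684), was the highest of the 8 cortices for Pcp2 (26.3 cpm), Ppp1r17 (1.99 cpm) and Cbln3 (19.1 cpm). It was not the highest for Gabra6 (1.59 cpm, against 1.80 cpm in mouse m138) or Cbln1 (9.56 cpm, against 21.1 cpm in mouse m118), and it was the second lowest for Car8 (17.5 cpm). Its sum of granule cell markers, 133 cpm, was the lowest of the 8 cortices. Most of that sum in cortex came from Etv1, with a mean of 161 cpm over the 8 cortices (67.7 to 262 cpm). Over the 7 granule cell markers the shares ran from 0.404% (Fat2 in cortex) to 29.5% (Etv1 in hippocampus), and Etv1 and Neurod1 are also known in forebrain neurons. The part of cerebellar RNA or reads in the forebrain levels of Pcp2 and Ppp1r17 was not tested. Car8 in cortex, at 1.62%, lay above the cortical shares of Cbln3, Gabra6, Fat2 and Cbln1 (1.03% in both regions) and below those of Zic1 (3.25%, and 3.86% in hippocampus), Neurod1 (4.19% and 5.72%) and Etv1 (24.1% and 29.5%).

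**Figure D2:**
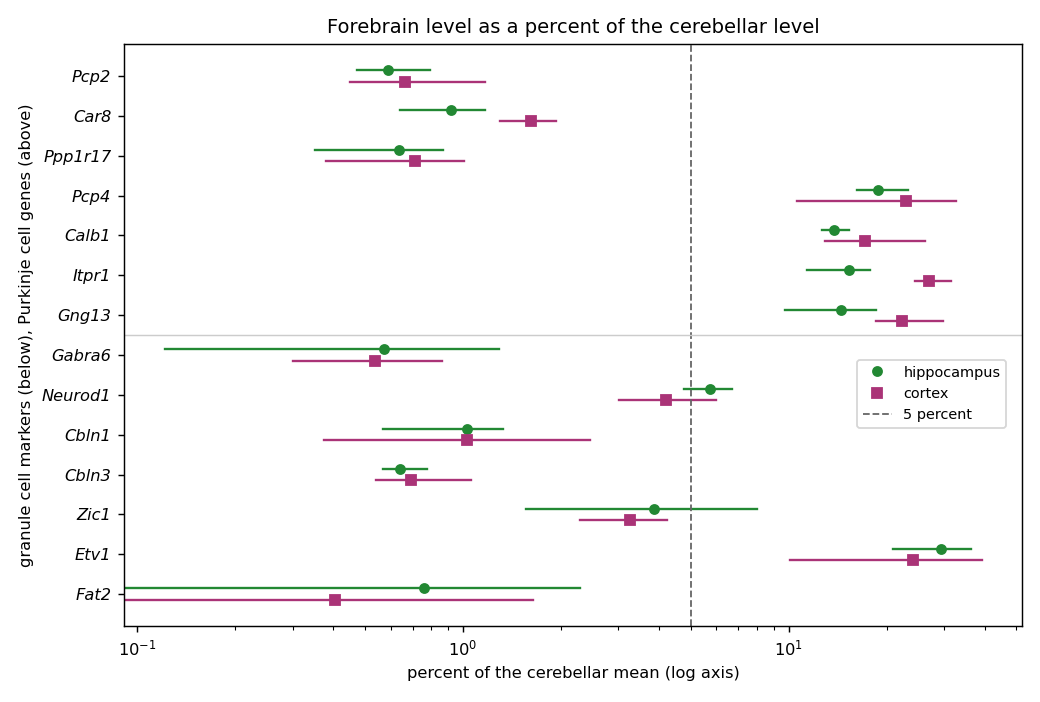
Mean level in hippocampus (circles) and cortex (squares) as a percent of the cerebellar mean, on a log axis, for the Purkinje cell genes (above the line) and the granule cell markers (below it), with lines from the lowest to the highest library, which run off the axis for Fat2 because some libraries had no count. The means of Pcp2, Car8 and Ppp1r17 lie left of the dashed 5% limit, as do those of Gabra6, Cbln1, Cbln3, Fat2 and Zic1. Those of Pcp4, Calb1, Itpr1, Gng13 and Etv1 lie right of it. Neurod1 lies right of it in hippocampus (5.72%) and left of it in cortex (4.19%).

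Between the forebrain regions no Purkinje cell gene was called, where 8.42% of all genes were called in either direction. Itpr1, Car8 and Gng13 were higher in cortex at an FDR of 2.3e-08, 5.1e-06 and 3.6e-05, but their folds of 1.77, 1.74 and 1.55 stayed under the threshold of 2. Calb1 differed by a log2 of 0.32 (95% confidence interval 0.06 to 0.58, FDR 0.048). For Pcp4 the log2 difference of cortex to hippocampus was 0.27 (-0.10 to 0.64), for Pcp2 0.12 (-0.18 to 0.42) and for Ppp1r17 0.09 (-0.45 to 0.62), with an FDR between 0.26 and 0.85. The order of the levels was thus cerebellum, cortex, hippocampus for Car8, Itpr1 and Gng13, with neighbouring regions that did not overlap in any library. For Pcp2, Pcp4, Calb1 and Ppp1r17 the cerebellum came first, and the cortical and hippocampal ranges overlapped. Of these only Calb1 had an interval between the forebrain regions that left out 0. Within each region the wild-type and CD libraries of every gene overlapped in range.

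The cortical libraries were uneven for Pcp4 and Calb1. Pcp4 was at 344, 490, 517 and 184 cpm in the wild-type cortices (mice m162, m164, m240 and m244) and at 344, 568, 534 and 211 cpm in the CD cortices (mice m118, m138, m190 and m242). Calb1 was at 188, 192, 245 and 354 cpm and at 175, 181, 203 and 322 cpm in the same libraries. The cortices of mouse m244 (wild type) and mouse m242 (CD) had the lowest Pcp4 and the highest Calb1, at 0.521 and 0.655 Pcp4 per Calb1, against 1.83 to 3.14 in the other 6. In the hippocampus mouse m244 had the highest Pcp4 of the 7 mice (405 cpm), and mouse m242 the lowest Pcp4 (281 cpm) with the highest Calb1 (207 cpm). In the cerebellum Pcp4 was at 1728 and 1565 cpm in these mice, inside the range of 1553 to 1902 cpm.

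These 2 cortices also had the lowest summed levels of cortical neuron markers (529 and 553 cpm, against 591 to 675 cpm), of hippocampal neuron markers (228 and 243 cpm, against 280 to 378 cpm) and of granule cell markers (133 and 144 cpm, against 155 to 325 cpm). Their striatal sums, 46.2 and 52.4 cpm, lay within the 43.0 to 57.0 cpm of the others, and their thalamic sums, 66.1 and 65.2 cpm, within 29.7 to 67.8 cpm. Most of the granule sum in cortex came from Etv1, also known in forebrain neurons, with a mean of 161 cpm over the 8 cortices. The part of the marker sums in the levels of Pcp4 and Calb1 was not tested. The coefficient of variation of Pcp4 was 37.5% over the 8 cortices, 12.3% over the 7 hippocampi and 7.79% over the 7 cerebella, and that of Calb1 was 29.6%, 6.20% and 7.24%.

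**Figure D3:**
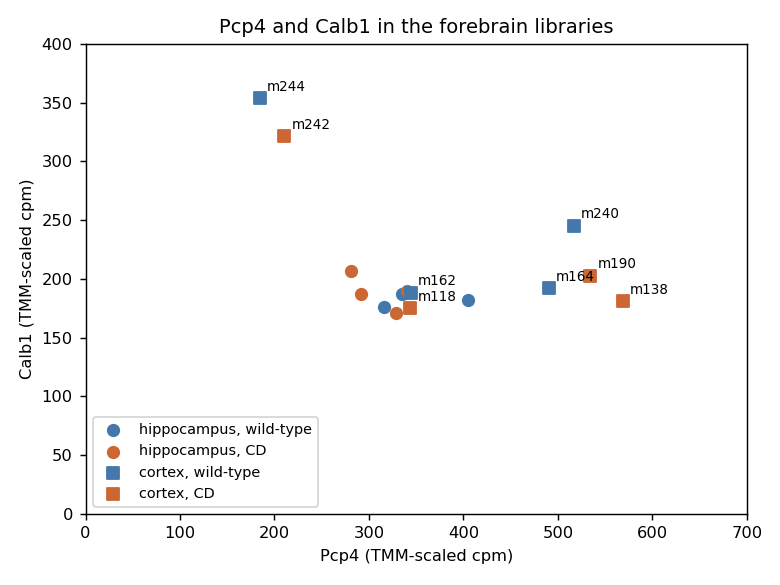
Pcp4 (horizontal) and Calb1 (vertical) in each hippocampal (circles) and cortical (squares) library, in TMM-scaled cpm, with colors for genotypes and the mouse number beside each cortex. The cortices of mice m244 and m242 stand at 184 and 211 cpm of Pcp4 with 354 and 322 cpm of Calb1, away from the other 6.

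In the cerebellum the 7 genes varied little between mice. The highest cerebellar library exceeded the lowest 1.20-fold for Pcp2, 1.23-fold for Pcp4, 1.24-fold for Calb1 and Itpr1, 1.27-fold for Car8, 1.37-fold for Ppp1r17 and 1.38-fold for Gng13. The CD cerebellum of mouse m118 was the lowest for Calb1, Car8 and Ppp1r17, but the lowest library was another one for Pcp2, Pcp4, Itpr1 and Gng13.

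Of 19 genes of the route from mGluR1 to the calcium store, 18 were tested, 5 of which passed the filter through the cerebellar libraries alone, which fixes their direction. Of the other 13, 6 were called higher and 1 lower in cerebellum in each of the comparisons, with a median log2 difference of 0.87 to hippocampus and 0.53 to cortex. Among the widest differences to the mean of hippocampus and cortex were those of Atp2a3 (4.44) and Casq2 (4.21), a pump and a buffer of the calcium store, both among those 5, and Homer3 (4.03), a scaffold that ties the receptor to Itpr1. Homer3 was not confined, with 17.3% of its cerebellar level in hippocampus and 2.14% in cortex. Itpr2 and Atp2b2 differed least, by -0.22 and 0.39. The called gene of the route that was lower in cerebellum was Itpka, the kinase that uses up IP3, with -1.41 to hippocampus and -1.34 to cortex.

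Of 18 other Purkinje cell genes 17 were tested, and 4 of them, Lhx1 and Skor2 included, passed the filter through the cerebellar libraries alone, so that their direction was set by it. Of the other 13, 10 were called higher in cerebellum than in hippocampus and 10 higher than in cortex, none lower, with a median log2 difference of 2.46 and 1.17. Lhx1, a transcription factor of Purkinje cell differentiation, was at 10.7 cpm in cerebellum and at 0.116 and 0.0545 cpm in hippocampus and cortex. Skor2, another such factor, was at 4.11 cpm in cerebellum and had no count in the 8 cortices, which makes it at least 63.9-fold higher when 3 counts over the cortices are taken as the floor. Slc1a6, the Purkinje cell glutamate transporter, differed from the forebrain by 4.48 and Pvalb, a calcium buffer shared with interneurons, by 3.71. Clmn and Gad2, an enzyme of GABA synthesis in all inhibitory neurons, differed least, by 0.57 and 0.10. Some of the list, such as Gad1, Gad2, Slc32a1 and Pvalb, also mark inhibitory neurons of the forebrain.

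The relatives of the 7 genes did not share their pattern as families. Nrgn, a calmodulin-binding IQ protein like Pcp4, was lower in cerebellum, with log2 differences of -4.91 to hippocampus and -5.50 to cortex, while Pcp4l1 and Gap43 were not called. Of the EF-hand relatives of Calb1, Calb2 was higher by 3.53 and 5.14 and Pvalb by 4.28 and 3.14, and Scgn was lower than in hippocampus (-5.40). Of 9 other G protein gamma subunits tested, 6 were called lower than in hippocampus and 5 lower than in cortex; Gng7 had -3.34 and -1.96, and Gng11 was called higher than in cortex (1.17), so that of the gamma subunits tested Gng13 was the one called higher in both comparisons.

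Of 5 carbonic anhydrase relatives of Car8, 3 were called higher than in hippocampus and 2 higher than in cortex, none with the difference of Car8. Of the other IP3 receptors, Itpr3 was at 2.82 and 2.50, having passed the filter through the cerebellum alone, and Itpr2 was not called. Gpsm1, a GoLoco protein like Pcp2, was higher by 1.95 and 1.62 and Gpsm2 was lower (-2.19 and -1.79). Of the phosphatase inhibitors beside Ppp1r17, Ppp1r1a was lower (-2.68 and -2.74) and Ppp1r1b was called higher than in hippocampus, 44.0 cpm there against 126 cpm in cerebellum. Among markers of other cerebellar cells, those of granule cells were higher too, and those of Bergmann glia and interneurons only in part. Leaving aside Gabra6, Fat2 and Gdf10, which passed the filter through the cerebellum alone, 5 of 5 granule cell markers were called in both comparisons, with a median of 4.68 and 4.95, and 1 of 2 of Bergmann glia, with 0.82 and 1.64. Of 5 markers of cerebellar interneurons, 3 were higher and 1 lower than in hippocampus, and 2 higher and 2 lower than in cortex.

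The genes most like each member were found from the root mean square (RMS) difference of centered log2 cpm over the 22 libraries. Pcp2 was nearest to Cbln3 (0.28), Ppp1r17 (0.39) and the granule cell receptor subunit Gabra6 (0.43), before Cnpy1 and Cbln1, and Ppp1r17 to Pcp2 (0.39) and Cbln3 (0.41), before Cnpy1, Gabra6 and Cbln1. The pattern of these members over the 3 regions was therefore as near to that of granule cell genes as to each other. Car8 was nearest to Gm2694 (0.54), Ppp1r17 (0.58), Gm31842, Cbln3 and Pcp2. Itpr1 and Gng13 lay at 0.22 from each other, the nearest for Gng13 and second to Lhfp (0.20) for Itpr1; Reln and Dipk2a were among the 5 nearest of both, with Lin7a for Itpr1 and Lhfp and Galnt13 for Gng13. Calb1 was nearest to Grin2c (0.26), an NMDA receptor subunit of granule cells, then Mpp7, Zfp467, Dipk2a and Tspan9, and Pcp4 to Rcan3 (0.38), then Cdc42ep1, Nipal2, 6430503K07Rik and Lgr5.

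Between genotypes no Purkinje cell gene was called in any region. In the cerebellum, where all 7 were tested, the log2 difference of CD to wild type was -0.07 (95% confidence interval -0.27 to 0.13) for Pcp2, -0.02 (-0.24 to 0.20) for Pcp4, -0.09 (-0.29 to 0.12) for Calb1 and -0.01 (-0.23 to 0.21) for Car8. It was -0.15 (-0.36 to 0.06) for Itpr1, -0.02 (-0.28 to 0.24) for Ppp1r17 and -0.15 (-0.39 to 0.09) for Gng13, with an FDR of 0.98 or more for each. The intervals together ran from -0.39 to 0.24 on the log2 scale, inside the called fold of 2. The 7 differences were below 0, with a median of -0.07, beside -0.002 over all 10137 genes tested, and they share their libraries. In none of the 7 did the wild-type and CD cerebella separate, where 5.35% of all genes did.

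In the hippocampus 6 genes were tested, and the log2 differences ran from -0.18 for Pcp4 (-0.44 to 0.08) and Car8 (-0.63 to 0.28) to 0.23 for Gng13 (-0.17 to 0.62). Between them lay Pcp2 at -0.09 (-0.52 to 0.35), Calb1 at 0.06 (-0.16 to 0.27) and Itpr1 at 0.13 (-0.17 to 0.43). Without the library labelled CD hippocampus of mouse m118 the differences were -0.01 for Pcp2, -0.15 for Pcp4, 0.07 for Calb1, -0.07 for Car8, 0.10 for Itpr1 and 0.31 for Gng13, at an FDR of 0.998 each, and no gene was called, with 437 of 9857 at an unadjusted p under 0.05. In none of the 6 did the genotypes separate, where 5.41% of all genes did, and 9.16% without that library, again with none of the 6. Granule cell markers summed to 195 to 244.2 cpm in wild-type and to 253 to 299 cpm in CD hippocampus, and cortical neuron markers to 432 to 469 cpm and 483 to 551 cpm. Those sums did not overlap between genotypes, and the CD ranges were the same without mouse m118. Most of the granule sum came from Etv1, also known in forebrain neurons, with a mean of 197 cpm over the 7 hippocampi. Cbln3 had a mean of 11.6 cpm there and Gabra6 1.19 cpm. Sums of hippocampal, striatal, thalamic and Bergmann glia markers overlapped between the genotypes. The part of the marker sums in the hippocampal differences was not tested.

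In the cortex the differences of the 6 genes tested ran from -0.15 for Calb1 (-0.61 to 0.31) to 0.24 for Gng13 (-0.07 to 0.54). The intervals were widest for Pcp4 (0.10, -0.55 to 0.75) and Pcp2 (-0.01, -0.54 to 0.53). In none did the genotypes separate, where 2.54% of all genes did. Ppp1r17 was too low to be tested in the forebrain. Its hippocampal mean was 1.24 cpm (SD 0.516, 3 mice) without and 1.27 cpm (SD 0.382, 4 mice) with the CD change (1.18 cpm, SD 0.421, 3 mice, without m118), and its cortical mean 1.41 cpm (SD 0.487) and 1.42 cpm (SD 0.448) over 4 mice each.

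**Figure D4:**
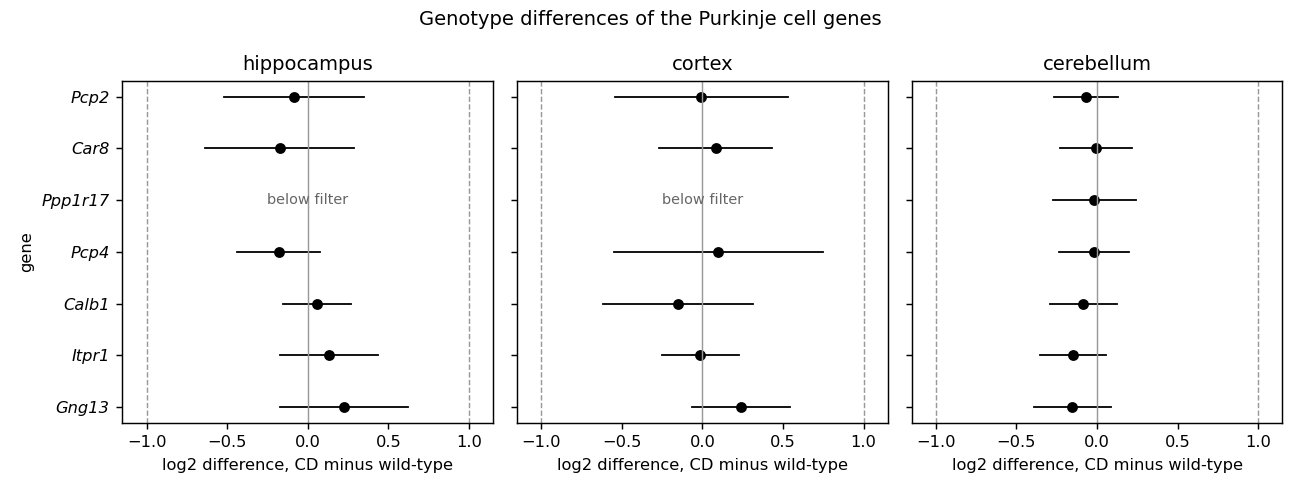
Log2 difference of CD to wild-type mice for each Purkinje cell gene and region, with the 95% confidence interval of the quasi-likelihood fit as a line and the called fold of 2 as dashed lines at -1 and 1. Every interval spans 0, the cerebellar ones are the narrowest, and Ppp1r17 was below the filter in hippocampus and cortex.

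The share of all genes called between genotypes was 0% in each region by edgeR's quasi-likelihood test, of 9960 genes in hippocampus, 9924 in cortex and 10137 in cerebellum, so the members' count of 0 equals the background. At an unadjusted p under 0.05, 420, 329 and 461 genes passed, and none of the 7 members did in any region; DESeq2 called 2 genes in hippocampus, 1 in cortex and 0 in cerebellum, none of them a member. A test of whether the genotype difference itself varied between regions (edgeR quasi-likelihood F test, FDR below 0.05) called 0% of 11133 genes, 436 at an unadjusted p under 0.05 and 3 with DESeq2. The members' FDR was 0.999 each, with the highest F, 2.50, for Gng13. Over the 3 regions together, with the mouse as a random block in limma voom, 0% of genes were called (398 at an unadjusted p under 0.05), and the members' differences lay between -0.06 (Calb1, SE 0.10) and 0.11 (Gng13, SE 0.09). Without the library labelled CD hippocampus of mouse m118 both tests again called 0 of 11109 genes, with 406 and 435 at an unadjusted p under 0.05 and none of the 7 members among them, the highest F of a member was 2.98 (Gng13), and the members' differences over the regions lay between -0.05 (Calb1) and 0.13 (Gng13).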

How the data were processed

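The authors deposited raw counts per RefSeq transcript, made from CelSeq2 reads with STAR, against mm10, and the End Sequence Analysis Toolkit (ESAT); their versions, the strand setting and whether molecular identifiers were collapsed are not given in the sources used here, so precision stated from counts covers counting error. Of 85964 transcripts, 69280 (80.6%, with 81.4% of the counts) were matched to a symbol by accession without version in RefSeq (GRCm38.p6), and for each of 23033 genes the transcript with the most counts was kept. Library totals were between 2757684 and 8847478 counts (median 5881112.5).

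Genes that reached 5 cpm in 2 or more of the libraries fitted were scaled by TMM and tested with edgeR 4.0.16 (glmQLFit, glmQLFTest; R 4.3.3) at an FDR below 0.01 and a fold above 2 or below 0.5. Regions were compared over 22 libraries with 6 group means, genotypes within each region. limma 3.58.1 (voom, mouse as random block), DESeq2 1.42.0 as an alternative, Python 3.11 and matplotlib 3.10.9 were also used, and the fits were tested on simulated data. Log2 cpm for the likeness of patterns used a prior count of 2. The biological coefficient of variation was 15.7% in hippocampus, 16.0% in cortex and 14.0% in cerebellum.

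Groups and mouse numbers came from the sample labels. The numbers pair regions because they are those of the same mice, and deviations from the group means correlated on average by 0.083 between hippocampus and cortex (7 mice), 0.047 between hippocampus and cerebellum (6) and -0.0037 between cortex and cerebellum (7). Genotypes are different mice and cannot be paired. The members were named throughout, of each list up to 4 genes with the widest and up to 2 with the smallest difference of cerebellum to forebrain, of the relatives those tested, and 5 similar genes per member; Itpka and genes given to qualify a count were chosen once their values were known. The members and lists were chosen with earlier results of these data known. The study's legend gives 1 library fewer per group, and all were used here. Alternatives were DESeq2, library totals, no filter, the filter over all libraries, curated transcripts, the mouse as a block, 1 genotype, and each library left out. Leaving the CD hippocampus of mouse m118 out of the tests over several regions, and counting genes that pass the filter on the forebrain libraries, were added after seeing the data.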

Additional observations from a re-analysis of the deposited data

Results flagged for a closer look

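Ppp1r17 in the CD cortex of mouse m242 was at 0.7505 cpm, below the other 3 CD cortices (1.58 to 1.70 cpm), with a gap to the nearest of them of 0.875 of the group's range, above the Dixon limit for 4 samples. It was 1 of 28 groups of 4 libraries examined over the 7 genes, where chance gives about 1 in 20, or 1.4. The value rests on 6 counts.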

How the results depend on the processing

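All 7 genes were called higher in cerebellum in both comparisons under each alternative run, leaving out each library in turn included. For Ppp1r17 the filter, wherever it was applied, set that direction. None of the 7 genes was called between forebrain regions or genotypes under any of these alternatives. Their log2 differences of cerebellum to hippocampus ranged over these settings from 7.34 to 7.57 for Pcp2, 6.65 to 6.91 for Car8, 7.16 to 7.46 for Ppp1r17, 2.31 to 2.57 for Pcp4, 2.79 to 3.04 for Calb1, 2.57 to 2.88 for Itpr1 and 2.60 to 2.97 for Gng13. With the mouse as a block they were 7.42 for Pcp2, 6.71 for Car8 and 7.33 for Ppp1r17, and pairing by mouse changed no call of the 7 genes. The 3 confined genes were confined under limits of 2, 5 and 10 percent and in each other setting. Dividing by library totals in place of TMM moved the median of all genes by 0.20 (cerebellum to hippocampus) and 0.25 (cerebellum to cortex) and raised the part of called genes that were higher in cerebellum from 42.8% to 52.7% and from 42.9% to 57.3%; it moved the forebrain shares of Calb1 in hippocampus to 12.2%, Car8 in cortex to 1.38% and Itpr1 in cortex to 22.8%, more than 1 SD. Counts over all genes depended more on the setting. Between genotypes DESeq2 called 2 genes in hippocampus and 1 in cortex, and 3 in the test of the difference between regions, where edgeR called 0. Without a filter edgeR called 6, 3 and 10 genes in hippocampus, cortex and cerebellum, and 1471 between cortex and hippocampus, against 937. Leaving out a library gave 0 to 1 genes between genotypes in cortex (1 without CD mouse m190) and 0 to 1 in cerebellum (1 without CD mouse m242). The cause was not tested. Depth limits Ppp1r17 in the forebrain, at 4 to 13 counts per library.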
